A study of Homo sapiens with 8 samples.

Results

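The cells described here carried radial glia genes and no count of the division genes MKI67 and TOP2A, and came from 3-D neural cultures grown from the established human embryonic stem cell line H1. A cell belonged to the set if its name began with 3D, if it had a value of 1 or more for at least 4 of the 7 genes PAX6, HES5, FABP7, SLC1A3, PTPRZ1, HOPX and SOX2, and if it had 0 for the 6 genes MKI67, TOP2A, STMN2, COL3A1, TTR and SHH. The first genes mark radial glia. The second exclude cells that divide, neurons, mesenchymal cells, choroid plexus and floor plate. The rule was met by 801 of 21699 3-D cells, or 3.69%, in a series of 43693 cells. Without the part on the name it was met by 569 of 21994 2-D cells, which served as the comparison. The cells were thus chosen by measured values of these 13 genes, whose levels are given as a description and were not tested.

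The series set 2-D beside 3-D neural cultures and exposed some of them to dopamine, cocaine or morphine. RNA was read from single cells labelled by split-pool barcoding, and the 8 deposited sublibraries are portions of one pool whose labels name all treatments together. The groups come from a culture tag in each cell name. The tags AcDop, AcCoc and AcMor fit dopamine, cocaine and morphine, and Vehic fits the untreated cultures of the labels, but the labels define none of them. The 22 3-D tags read 3DFusi (4 AcCoc, 3 AcMor and 3 Vehic), 3DMono (2 each of AcDop, AcMor and Vehic) and 3DProto (3 of 1For and 3 of 2Xia, with no treatment). The 2-D tags tested read 2DCocu (4 each of AcCoc, AcMor and Vehic) and 2DMono (2 each of AcDop, AcMor and Vehic). The 2DProto tags (2 each of 2Fjo, 3Wu and 4Nic, with no treatment) hold 192 of the 569 2-D cells and are only described. All came from the same line, and no genetic change is named. The sources used here give neither the age of the cultures nor the dose and time of treatment. Organoids were dissociated with papain, 2 to 3 per dissociation. The sources do not say how cells were freed from 2-D cultures, so growth format and handling cannot be told apart. Nothing says that numbered tags are separate cultures or differentiations, so p-values measure the spread between tags, and n is a number of tags.

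Radial glia are the stem cells of the developing brain. Their bodies lie along the ventricle, their long fibres guide newborn neurons, and they divide to give neurons directly or through intermediate progenitors, and later astrocytes. Notch signalling keeps them in the progenitor state. In the human cortex a further type, the outer radial glia, has left the ventricle and carries HOPX, TNC, PTPRZ1, FAM107A, MOXD1 and LIFR. PAX6 is a transcription factor of dorsal progenitors, HES5 a Notch target, FABP7 a fatty acid binding protein, SLC1A3 a glutamate transporter and PTPRZ1 a receptor phosphatase.

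Among the 801 cells PTPRZ1 was present in 100% and SLC1A3 in 99.5%, PAX6 in 89.1% and FABP7 in 86.4%. HOPX was present in 48.4%, HES5 in 14.7% and SOX2, a transcription factor of neural stem cells, in only 2.75%. The set thus rested mainly on the first 4 genes, and 510 cells met the rule with exactly 4 of the 7. Another 256 had 5, 33 had 6 and 2 had all 7. Just outside the rule, 761 3-D cells with none of the 6 excluding genes had 3 of the 7, with a median of 10340 counts per cell against 13110 in cells with 4. Reaching 4 genes was therefore more common in cells read more deeply, from a median of 10340 counts at 3 genes to 17710 at 5. Of 2846 3-D cells with at least 4 of the genes, 44.0% carried MKI67, 41.5% TOP2A, 37.2% STMN2, 23.4% COL3A1, 13.6% TTR and 3.87% SHH.

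Counts per cell ran from 4390 to 75237 with 14369 as the median, and 4856 genes were seen in the median cell, against 12496 counts and 4526 genes over all 3-D cells. A tag held 5 to 165 of the cells and a sublibrary 76 to 120, and 13 of the 22 tags held at least 20. No barcode occurred more than once within a sublibrary. Across sublibraries 2393 barcodes recurred, and 8 of the 801 cells shared a barcode with another of the 801 in a different sublibrary. Doublets were not called, and leaving out the deepest 10% of cells was an alternative.

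The genes that stood out in these cells against all other cells of their own tags are given as the median over the 13 tags of the log2 ratio of CPM, the counts of a gene scaled to a total of 1e6. This sets chosen cells against the rest and is no test. MOXD1, a monooxygenase-like gene of outer radial glia, led among the known markers, at a log2 ratio of 2.59 (2.04 to 3.16 over tags) and 451 CPM. It was followed by FAM107A, a regulator of the cytoskeleton, at 2.43. IL33, a nuclear cytokine, stood at 2.39 and the serotonin receptor gene HTR2A at 2.36. The thyroid hormone transporter SLCO1C1 stood at 2.31. TNC, a matrix glycoprotein, stood at 2.21, the growth factor gene PDGFD at 2.15 and BCAN, a brain proteoglycan, at 2.12. PTN, a secreted growth factor, and GLI3, the repressor of Hedgehog signalling, stood at 2.00 and 1.99. DELEC1 had the highest named ratio, 2.67. Each of these genes was higher in the chosen cells in 13 of 13 tags. PTH2R, a parathyroid hormone receptor, stood at 2.60. The lowest were DLX6-AS1, a transcript of GABAergic neurons, at -5.41, and IGF2, a growth factor of mesenchyme, at -4.73, with the neuronal genes CELF4 at -4.56 and MYT1L at -4.28.

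Several genes of radial glia that the rule did not use were widespread, though not all. GLI3 had a count in 97.3% of the 801 cells and in 93.8% after thinning each cell to 5000 counts, PTN in 94.5% before thinning, TNC in 78.8% and MOXD1 in 68.7%. SFRP1, a secreted WNT inhibitor of cortical progenitors, had a count in 74.2%. Less common was FAM107A, in 42.0% of the 801 cells. Among the 34 1For cells alone, ID4 had a count in 14 cells and PROM1 in 17, and the filament genes NES and VIM in 21 and 28. The 34 cells do not stand for the 801. Shares of the other genes of these lists are not given here. As a measure of background, the microglial gene C1QA and the muscle gene MYOD1 were found in 0 of the 801 cells, the muscle gene TTN in 14% and the myelin gene MBP in 6.24%. Of the other microglia markers CSF1R was found in 9.61%, CD68 in 4.74%, AIF1 in 0.250% and C1QB in 0.125%. In the other 3-D cells CSF1R was found in 10.7% and CD68 in 4.90%. Markers of other cells were checked as whole lists. The 8 neuron markers summed to 371 CPM against 1792 CPM in the other 3-D cells, with STMN2 at 0 by the rule and SYT1 in 42.7% of cells. The 7 mesenchymal markers summed to 17.9 CPM against 1174, and the 6 of intermediate progenitors to 69.9 against 161. The 10 astrocyte markers summed to 439 CPM against 363: the water channel gene AQP4 was seen in 2 cells, the filament gene GFAP in 11.9% and the secreted chaperone gene CLU in 62.8%. The choroid plexus gene FOLR1 and the neural crest gene FOXD3 were at 0.

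Markers of the cell cycle beyond the excluded pair were not all absent. After thinning, at least 1 of 12 genes of G2 and M phase was present in 33.8% of the cells and at least 1 of 12 genes of S phase in 44.9%. At full depth the shares were 61.3% and 67.9%. Here, non-cycling means only that neither MKI67 nor TOP2A was read.

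Genes of the dorsal telencephalon were common. At least 1 of LHX2, EMX1 and EMX2, transcription factors of the cortical field, had a count in 68.3% of the cells (41.7% after thinning). LHX2 had a count in 441 of the 801 cells (55.1%; 28.8% after thinning) and EMX1 in 231 (28.8%). NKX2-1, which marks ventral telencephalon, had a count in 0 cells. A count of 0 in 801 cells allows up to 0.375% of cells with a count at this depth, which is no limit on cells that express the gene. NKX2-1 stands in a list of 9 ventral telencephalon genes, and others of the list were present. Of the 9, 1 had enough counts to be tested within 3DMono, and 3 in 3DMono against 2DMono. In that last comparison 0 of the 3 were called, against 12.1% of all genes tested, with a median log2 change of 4.49. The 0 of NKX2-1 therefore does not stand for the list. By arrangement, LHX2 was present in 64.5% of 445 3DMono cells, 52.8% of 254 3DFusi cells, 29.4% of 68 2Xia cells and 0 of 34 1For cells, which allows up to 8.82% of cells with a count. The pooled 3DMono share leaned on AcMor tag 1, at 81.8% of 165 cells, while the other 3DMono tags stood at 44.4% to 58.8%. The 3DFusi tags stood at 40% to 70.6%. EMX1 was present in 40.7% of 3DMono cells and 16.1% of 3DFusi cells. These shares by arrangement and tag are at full depth. AcMor tag 1 was the most deeply read 3DMono tag, at a median of 23454 counts per cell against 7950 to 13276. After thinning, at least 1 of LHX2, EMX1 and EMX2 was present in 54.55% of its cells. In the other 3DMono tags that share was 40.7% to 57.1%. By arrangement the thinned share was 51.7% in 3DMono, 32.4% in 3DFusi, 25% in 2Xia and 11.8% in 1For.

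A part of the cells carried genes of more posterior regions. At least 1 of 14 genes of midbrain, hindbrain and spinal cord, among them EN1, the PAX2, PAX3 and PAX7 genes and HOX genes, was present in 61.8% of the 34 1For cells (95% exact binomial interval 43.6 to 77.8). The share was 20.1% in 3DFusi, 17.7% in 2Xia and 9.89% in 3DMono. After thinning the 4 shares were 55.9%, 13.2%, 6.25% and 5.67%. Intervals cover counting error only. In 1For, PAX3, a factor of the dorsal neural tube, was at 228, 178 and 0 CPM in tags 1, 2 and 3, and in 2Xia at 125, 319 and 0 CPM. PAX3 was not called between the protocols (0.34 ± 1.46). In 1For, PAX7 was at 108, 84.7 and 0 CPM and PAX2 at 102, 80.4 and 0 CPM. Tags 1 and 2 of 1For were high and tag 3, with 7 cells, was at 0 for all 3 genes. In 2Xia, PAX7 was at 3.90, 13.3 and 2.01 CPM and PAX2 at 3.90, 0 and 0 CPM.

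**Figure D1:**
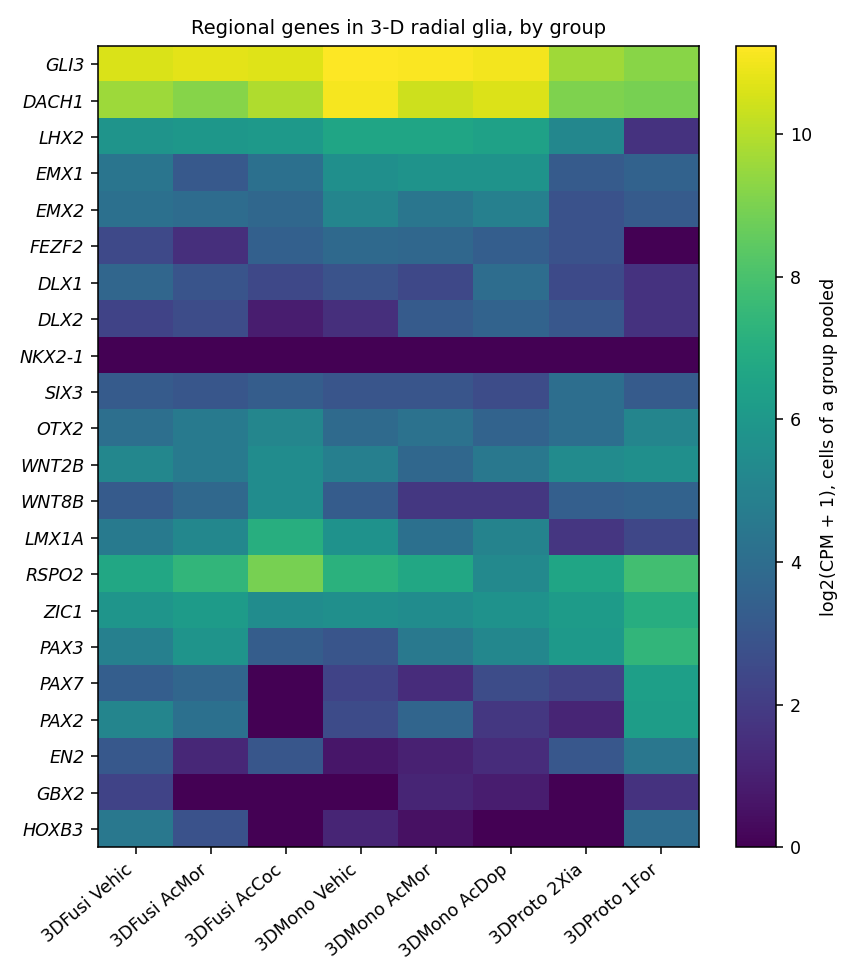
Heat map of regional genes (down the side) in the chosen cells of the 8 3-D groups (along the bottom), coloured by log2(CPM + 1) with the cells of a group pooled. PAX7 and PAX2 are highest in 3DProto 1For and RSPO2 in 3DFusi AcCoc, GLI3 is high in all 8 groups, and NKX2-1 is at 0 in all 8.

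A smaller group held RSPO2 and LMX1A, genes of the dorsal midline, where the cortical hem secretes WNT and BMP proteins. RSPO2, an enhancer of WNT signalling, had a count in 57 of the 801 cells and LMX1A, a roof plate factor, in 43, and 28 cells had both. Of the cells with both, 64.3% also had WNT8B and 60.7% WNT2B, ligands of the hem, while 7.14% had MOXD1 and 14.3% SFRP1. Among the 654 cells with none of RSPO2, LMX1A, PAX3, PAX7 and PAX2, WNT8B was present in 2.91%, MOXD1 in 73.7% and SFRP1 in 81.5%. Median depth was 18620 counts in the first and 13590 in the second. The genes that head these groups chose the cells, and no test was made. The RSPO2 cells were uneven over tags. In tags 1 to 4 of 3DFusi AcCoc, RSPO2 was at 1.42, 0, 2192 and 1618 CPM and LMX1A at 0, 0, 611 and 443 CPM. Tags 3 and 4, with 9 and 7 cells, were far above tags 1 and 2, with 34 and 11.

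These genes were found in a larger share of the 2-D cells, and no fit left out the cells that carry them. LMX1A was present in 38.9% of 2DCocu and 59.4% of 2DMono cells, against 8.66% in 3DFusi and 3.82% in 3DMono. RSPO2 was present in 44.4% and 63.0% against 10.2% and 3.82%. After thinning, RSPO2 was present in 40.4% and 53.3% against 10.4% and 2.49%. RSPO2 itself was not called in either pair with at least 20 cells per tag. There edgeR gave a log2 change of -2.08 ± 1.26 (SE) in 3DFusi against 2DCocu, with an adjusted p of 0.335. In 3DMono against 2DMono, with 1 2-D tag, the log2 change was -2.30 ± 2.03. With at least 5 cells per tag, all 6 dorsal midline and hem genes tested in that pair were called lower, as were 18.3% of all genes tested.

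The share of a tag's cells that met the rule was highest in 3DMono. It was 6.05% ± 2.15 (SD, n = 6) in 3DMono, 2.73% ± 1.62 (n = 10) in 3DFusi and 1.98% ± 0.831 (n = 6) in 3DProto, against 2.81% ± 1.49 (n = 6) in 2DMono and 2.30% ± 0.851 (n = 12) in 2DCocu. In 3DMono the tags stood at 7.92% and 4.16% for AcDop, 8.97% and 4.49% for AcMor and 6.82% and 3.92% for Vehic. In every treatment of 3DMono the tag numbered 1 was above the tag numbered 2, and each treatment's range overlapped the others'. In 3DFusi the AcCoc tags stood at 3.83%, 2.68%, 0.603% and 1.17%, the AcMor tags at 6.47%, 2.47% and 2.97% and the Vehic tags at 2.75%, 1.56% and 2.84%. The 3 treatments overlapped, with the AcMor tag 1 the highest of the 10.

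For the shares, tags were permuted exactly in two-sided tests, with Benjamini-Hochberg adjustment over 8 tests. 3DMono was above 2DMono by 3.24 percentage points, with tags permuted within treatment (exact permutation p = 0.0278, adjusted 0.222, smallest possible 0.00926). 3DFusi was below 3DMono by 2.88 points over the treatments both have (exact permutation p = 0.0600, adjusted 0.240). None of the 8 passed the adjusted threshold of 0.05. Among cells thinned to 5000 counts the share in 3DFusi was above 2DCocu, at 2.19% against 1.01%, and at full depth it was 2.73% against 2.30%. The shares count cells by the rule's own genes, so a difference in the level of those genes and one in the number of radial glia cannot be told apart. With at least 5 of the 7 genes the shares were 0.953% in 3DFusi and 0.165% in 2DCocu, and 2.23% in 3DMono and 0.326% in 2DMono. These are given as a description, since the rule's own genes set them, cells with 5 of the genes were read more deeply, and this share was not thinned. The treatments gave adjusted p-values of 0.743 against Vehic for AcCoc and AcMor in 3DFusi and for AcDop and AcMor in 3DMono. With 2 tags against 2 the smallest p that the 3DMono treatments allow is 0.333, and with 3 against 3 it is 0.1 for AcMor in 3DFusi and for 1For against 2Xia, so none of these 4 tests could pass. For AcCoc the smallest is 0.0286 before adjustment. Since those 4 tests cannot go below 0.1, adjustment over the 8 tests takes it above 0.05, so the AcCoc test could not pass either.

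**Figure D2:**
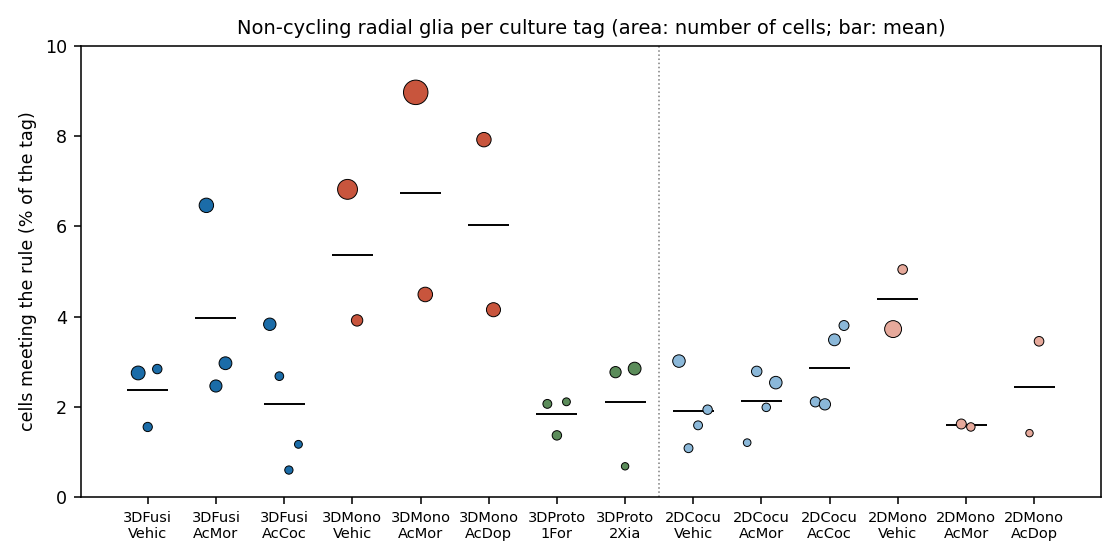
Percentage of each tag's cells that met the rule, by group along the horizontal axis, with 1 point per tag, its area scaled to the number of chosen cells, and a bar at the mean of each group; the dotted line parts 3-D from 2-D. The 3DMono tags lie between 3.92% and 8.97%, and the 3DFusi tags between 0.603% and 6.47%.

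To ask what differs between radial glia of the formats, counts were summed over the cells of each tag with at least 20 of them and tested with edgeR (quasi-likelihood), treatment being a term of the model, with Benjamini-Hochberg adjustment over all genes. The 13 genes of the rule were left out. All adjusted p-values below are from this test. The first comparison set 5 tags of 3DFusi against 5 of 2DCocu, with 21 to 50 cells in each, and called 1702 of 9932 genes, 800 higher and 902 lower in 3-D. Thus 17.1% of all genes tested were called, 8.05% as higher and 9.08% as lower. In 1182 of the called genes the tags of the formats did not overlap, as they did not in 14% of all genes tested. Without 3DFusi AcCoc tag 1 the count was 1053. The second comparison, the Mono pair, set 6 tags of 3DMono against the single 2DMono tag with 20 cells or more, a Vehic tag. It called 1395 of 11538 genes, 504 higher and 891 lower (12.1% in all, 4.37% and 7.72% by direction). Without 3DMono Vehic tag 1 the count was 715. With 1 tag on one side, that tag is assumed to vary like the others. At this minimum AcDop and AcMor occurred only in 3-D, where their terms took up their levels. The log2 changes of the Mono pair at 20 cells per tag thus compare the 3DMono Vehic tags with that 2DMono tag. The AcDop and AcMor tags entered the estimate of spread only, while CPM ranges and pooled ratios cover all 6 3DMono tags. With at least 5 cells per tag, 6 tags stood against 6, and 2822 of 8554 genes were called (33%, of which 14.7% higher and 18.3% lower, as shares of all tested). Over these tags the median depth of the cells was 15171 to 19131 counts in 3DFusi, 7950 to 23454 in 3DMono, 11812 to 15619 in 2DCocu and 24476 in the 2DMono tag, and the median mitochondrial share was 2.04% to 3.56%, 1.29% to 3.25%, 1.99% to 5.71% and 6.12%. The part of depth and of this share in the results was not tested.

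Outer radial glia genes were mostly higher in 3DFusi than in 2DCocu and were divided in the Mono pair. Of the 10 genes of this list, all 10 passed the filter on low counts in both comparisons. In 3DFusi against 2DCocu 7 were called higher and 1 lower, with a median log2 change of 0.86 against -0.006 over all genes tested. In 3DMono against 2DMono 4 were called higher, 1 lower and 5 not, with a median of 0.17 against -0.010, and with 5 cells per tag 5 higher and 3 lower. Over all genes tested 8.05% were called higher in the first comparison, 4.37% in the second and 14.7% with 5 cells per tag. MOXD1 changed most. It stood at 679, 743, 569, 583 and 348 CPM in the 3DFusi tags and at 2.67, 12.8, 17.7, 20.1 and 47.1 CPM in the 2DCocu tags, a log2 change of 4.82 ± 0.45 (SE, adjusted p = 4.93e-05). In 3DMono it ran from 287 to 662 CPM over 6 tags with a median of 424, against 11.7 CPM in the 2DMono tag (4.78 ± 0.47, adjusted p = 2.53e-07). Within each of these pairs no 2-D tag reached the lowest 3-D tag. HOPX and PTPRZ1, also genes of outer radial glia, belong to the rule and were not tested. HOPX was present in 48.4% of the 801 3-D cells and 32.2% of all 569 2-D cells, at 66.1 and 38.0 CPM. PTPRZ1 was at 2537 and 1380 CPM. The 3-D and 2-D cells thus met the rule with unequal levels of these 2 genes, whose part in the results was not tested.

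PTN was at 2289, 2817, 1227, 1219 and 2163 CPM in 3DFusi and at 270, 200, 160, 216 and 226 CPM in 2DCocu, a log2 change of 3.29 ± 0.27 (adjusted p = 1.92e-06). Against 2DMono, 3DMono was higher by 2.28 ± 0.34 (adjusted p = 3.03e-05). ACSBG1, an acyl-CoA synthetase of glia, was higher by 2.60 ± 0.64 and by 2.35 ± 0.73. In 3DFusi against 2DCocu smaller increases were called for FAM107A (1.01 ± 0.33), TNC (0.94 ± 0.25), STAT3 (0.78 ± 0.20), the transcription factor of cytokine signalling, and LIFR (0.54 ± 0.17), the receptor of leukaemia inhibitory factor. Only TNC among these 4 had tags that did not overlap. The integrin gene ITGB5 was the member that went the other way, by -0.73 ± 0.21 and by -3.50 ± 0.41. With 5 cells per tag it was not called in 3DFusi against 2DCocu (-0.40 ± 0.21, adjusted p = 0.173).

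Other radial glia genes split. Of 16 such genes outside the rule, 14 were tested in 3DFusi against 2DCocu, with 5 called higher and 0 lower and a median of 0.42. SFRP1 stood at 387, 349, 152, 191 and 344 CPM in 3DFusi and at 2.67, 31.9, 11.8, 11.2 and 13.2 CPM in 2DCocu, a log2 change of 4.48 ± 0.40 (adjusted p = 1.23e-05). GLI3 was at 1888, 1667, 1983, 1686 and 1626 CPM against 366, 582, 496, 499 and 497 CPM (1.90 ± 0.18, adjusted p = 2.98e-06). The 2-D tags lay below every 3DFusi tag for both genes. DACH1, a transcription factor of progenitors, ID4, an inhibitor of differentiation factors, and LIX1 were the others called higher, by 1.41, 1.41 and 1.84. The Mono pair tested 15, with 3 called higher and 4 lower. DACH1 rose by 3.38 ± 0.36, GLI3 by 2.38 ± 0.30 and TTYH1, a chloride channel gene, by 1.51 ± 0.42. The intermediate filament gene NES was lower, by -2.66 ± 0.40, as were the Notch target HES1 by -2.05 ± 0.53, PROM1 by -2.02 ± 0.36 and the cadherin gene CDH2 by -0.98 ± 0.27. SFRP1 stood between 82.6 and 495 CPM in 3DMono and at 15.1 CPM in the 2DMono tag, but was not called (3.95 ± 1.75, adjusted p = 0.336).

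**Figure D3:**
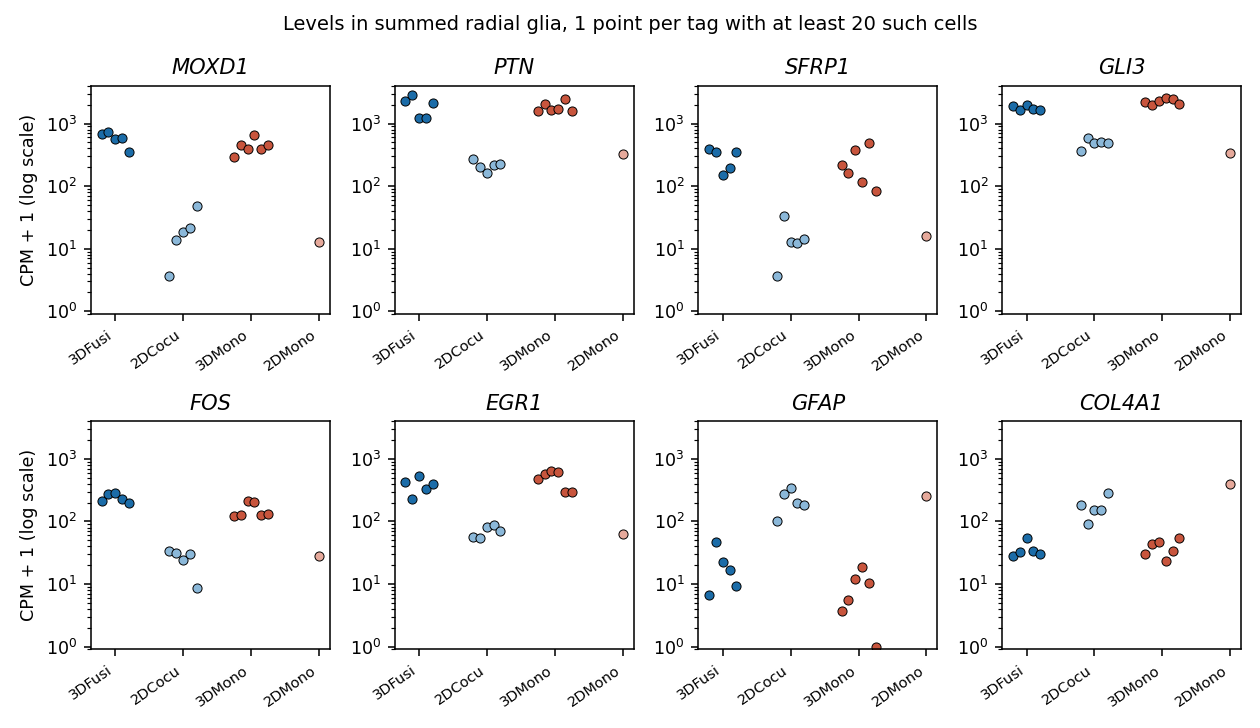
Levels of 8 genes as CPM + 1 on a log axis, with 1 point per tag with at least 20 of the chosen cells, by arrangement. MOXD1, PTN and SFRP1 are higher in every 3DFusi and 3DMono tag than in any 2DCocu tag or the 2DMono tag, and GFAP is lower in every one.

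Genes of ventricular or truncated radial glia gave no single direction. In 3DFusi against 2DCocu all 6 of the 8 that passed the filter were called, 4 higher and 2 lower. PDGFD was higher by 2.28 ± 0.36, FBXO32 by 3.08 ± 0.54, CCN1, a secreted matrix protein, by 2.24 ± 0.48 and the nuclear receptor gene NR4A1 by 1.98 ± 0.40, and ANXA1 and PALLD were lower by -3.65 ± 0.72 and -1.04 ± 0.28. The Mono pair tested 7, with PDGFD higher by 1.78 ± 0.36 and 4 lower. CCN1 was lower there, by -2.40 ± 0.50.

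Most astrocyte genes tested were lower in 3DMono than in 2DMono, while in 3DFusi against 2DCocu the calls were split in direction. GFAP stood at 5.67, 45.9, 21.2, 15.7 and 8.28 CPM in 3DFusi and at 102, 274, 346, 194 and 183 CPM in 2DCocu, a log2 change of -3.71 ± 0.42 (adjusted p = 0.000139). In 3DMono GFAP ran from 0 to 17.9 CPM, with a median of 6.91, against 254 CPM in the 2DMono tag (-5.53 ± 0.53, adjusted p = 1.02e-07). The groups did not overlap in either pair, as they did not in 51% of all genes tested in the Mono pair, where 1 tag stands on one side. ALDH1L1, a folate enzyme of astrocytes, was lower by -3.87 ± 0.48 in 3DFusi, while in 3DMono its 6 tags held 3 counts in all, a pooled ratio of 71.1 in favour of 2DMono (95% exact interval 23.1 to 355). This interval covers counting error only and not the spread between tags or cells. Of the 10 genes of the list, 6 were tested in 3DFusi against 2DCocu, with 1 called higher, 2 lower and 3 not. The summed markers overlapped, at 507 to 734 CPM in 3DFusi and 601 to 771 CPM in 2DCocu. The glutamate transporter gene SLC1A2 was the one called higher, by 1.22 ± 0.22. Of 7 tested in 3DMono against 2DMono 6 were called lower, among them the gap junction gene GJA1 by -4.56 ± 0.51 and CLU by -2.82 ± 0.56, with a median of -3.90. Of all genes tested there 7.72% were called lower.

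The 3 2DProto tags with 20 cells, which entered no test, were nearer to the 3-D values for some genes. GFAP was at 19.6 and 23.3 CPM in the 2Fjo tags and at 9.69 CPM in 4Nic tag 2, within the 3DFusi range. GLI3 was at 999 and 742 CPM in 2Fjo, between 2DCocu and 3DFusi, and at 2642 CPM in 4Nic. HS6ST2, a heparan sulfate enzyme gene called higher in 3DFusi, was at 298, 222 and 956 CPM, against 511 to 881 CPM in 3DFusi and 17.8 to 46.8 CPM in 2DCocu. MOXD1, at 8.53, 12.2 and 32.0 CPM, was in the range of the 2DCocu tags in all 3. What holds for the tested pairs therefore does not hold for every 2-D tag.

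Immediate early genes, which cells switch on within minutes of a stimulus and also during dissociation, were higher in 3DFusi than in 2DCocu, and fewer were called in the Mono pair. In 3DFusi against 2DCocu 6 of the 7 tested, out of 10, were called higher and 0 lower, with a median log2 change of 2.42. Of all genes tested there 8.05% were called higher. FOS was at 211, 273, 285, 223 and 198 CPM in 3DFusi and at 32.1, 29.8, 23.6, 29.0 and 7.53 CPM in 2DCocu (3.36 ± 0.25, adjusted p = 4.99e-07). EGR1 was at 432, 224, 523, 327 and 389 CPM against 56.2, 53.1, 79.7, 87.0 and 69.7 CPM (2.48 ± 0.24, adjusted p = 5.55e-06). No 2DCocu tag overlapped a 3DFusi tag for either gene. JUN, FOSB, ATF3 and NR4A1 were higher by 1.98, 2.43, 2.42 and 1.98. In 3DMono against 2DMono 2 of 8 tested were called, EGR1 by 1.86 ± 0.33 and FOS by 1.84 ± 0.37, and with 5 cells per tag 4 of 5. Of all genes tested there 4.37% were called higher, and 14.7% with 5 cells per tag. The FOS difference between the pairs was -1.47 ± 0.40, not called at 20 cells per tag (adjusted p = 0.0838) and called at 5 (0.00383).

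Since FOS and EGR1 are the members with the clearest change, the 250 bases before their start sites are shown, from RefSeq on GRCh38.p14. Capitals mark matches on either strand to TGACGT, the core of the site bound by CREB and ATF factors, and to the CArG box bound by serum response factor. FOS lies on the plus strand at chr14:75278578-75278827 and EGR1 on the plus strand at chr5:138465229-138465478.
FOS: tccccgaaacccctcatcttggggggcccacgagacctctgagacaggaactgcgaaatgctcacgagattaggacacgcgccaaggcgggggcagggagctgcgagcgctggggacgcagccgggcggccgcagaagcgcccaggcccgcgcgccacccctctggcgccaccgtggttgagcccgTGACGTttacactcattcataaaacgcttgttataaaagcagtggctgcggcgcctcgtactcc
EGR1: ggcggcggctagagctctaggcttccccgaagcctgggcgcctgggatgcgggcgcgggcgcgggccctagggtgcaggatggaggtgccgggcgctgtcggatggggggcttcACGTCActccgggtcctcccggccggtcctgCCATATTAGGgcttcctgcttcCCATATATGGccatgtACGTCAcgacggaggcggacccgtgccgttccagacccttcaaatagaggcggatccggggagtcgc
The EGR1 window held 2 CArG boxes and 2 matches to TGACGT, and the FOS window 1 match to TGACGT. Of the 10 immediate early genes, all of which had a promoter in the table, 1 had a CArG box and 4 had TGACGT in this window, against 1.16% and 7.10% of 35116 promoters. A match describes the sequence and not binding.

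Notch pathway genes were more often lower than higher in 3-D. In 3DFusi against 2DCocu 5 of the 10 tested, out of 17, were called lower and 1 higher, with a median of -0.92. Of all genes tested there 9.08% were called lower and 8.05% higher. The ligand gene JAG1 was at 51.0, 67.6, 60.3, 20.9 and 54.4 CPM in 3DFusi and at 147, 221, 156, 216 and 241 CPM in 2DCocu (-1.92 ± 0.27, adjusted p = 0.000210). Every 3DFusi tag was below every 2DCocu tag. The receptor genes NOTCH1 and NOTCH3 were lower by -0.95 ± 0.24 and -1.48 ± 0.30, and the receptor gene NOTCH2 was higher by 1.24 ± 0.16. The coactivator gene MAML2 and the glycosyltransferase gene LFNG were lower by -0.90 and -1.78. Of 12 tested in 3DMono against 2DMono 4 were called lower and 0 higher: JAG1, LFNG, MAML2 and HES1. Of all genes tested in that pair 7.72% were called lower and 4.37% higher.

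The matrix and basement membrane list had no single direction. Among the genes called lower, COL4A1 was at 26.9, 31.9, 53.8, 32.7 and 29.6 CPM in 3DFusi and at 185, 89.3, 151, 152 and 288 CPM in 2DCocu (-2.30 ± 0.28, adjusted p = 3.96e-05), with no overlap. COL4A2, the fibronectin gene FN1, the laminin gene LAMC1 and the perlecan gene HSPG2 were lower by -1.48, -1.49, -1.21 and -1.47. The proteoglycan genes NCAN and VCAN were called higher, by 1.37 ± 0.21 and 1.16 ± 0.21. With TNC as the third, 3 of the 15 genes of the list were called higher and 5 lower, with a median of -0.09, and 7 were not called, among them LAMA1, LAMA4, LAMB1, COL4A5, NID1 and BCAN. In 3DMono against 2DMono 1 was called higher, VCAN by 1.29 ± 0.28, and 7 lower, with COL4A1 at -3.71 ± 0.40. The 7 mesenchymal markers moved with these genes. Summed, they were at 14 to 27.4 CPM in the 3DFusi tags, 8.54 to 44.5 CPM in 3DMono, 67.9 to 153 CPM in 2DCocu and 335 CPM in the 2DMono tag, with 6 of the 7 seen in the 801 cells and COL3A1 at 0 by the rule. The 8 neuron markers summed to 199 to 439 CPM in 3DFusi and 422 to 757 CPM in 2DCocu. The part of these markers in the results was not tested.

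Among growth factor and metabolic genes, the FGF receptor gene FGFR2 was at 404, 452, 660, 435 and 310 CPM in 3DFusi against 41.4 to 51.3 CPM in 2DCocu (3.20 ± 0.20, adjusted p = 5.16e-08). In 3DMono against 2DMono it was higher by 1.15 ± 0.30, while the FGF feedback genes SPRY4, SPRY2 and DUSP6 were lower by -6.46, -2.02 and -3.82. Of the list of FGF targets and receptors, 1 of 9 tested there was called higher, 3 lower and 5 not, and in 3DFusi against 2DCocu FGFR2 alone of 8 tested was called. Of 10 genes of cholesterol synthesis 3 were called higher in 3DFusi (HMGCS1 by 1.37, IDI1 by 1.17 and MSMO1 by 1.15) and 2 in 3DMono (8 of 10 with 5 cells per tag), with 0 lower in either. Of all genes tested 8.05% were called higher in 3DFusi and 4.37% in 3DMono (14.7% with 5 cells per tag). In the hypoxia and glycolysis list the glucose transporter gene SLC2A3 was higher by 2.52 ± 0.37 in 3DFusi, and VEGFA and the phosphofructokinase gene PFKP were lower by -2.44 ± 0.50 and -1.90 ± 0.38. Of 11 tested in that list these 3 were called. Of 7 S phase genes tested 0 were called (edgeR, the same fit), and of 3 genes of G2 and M phase 1 was, the spindle gene ASPM, higher by 1.84 ± 0.61 (adjusted p = 0.0496) with tags that overlapped.

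Some genes of the hem were lower, and some of the dorsal telencephalon higher, in 3DMono than in 2DMono. Of 12 dorsal midline and hem genes 7 were tested and 4 called lower: the ligand genes WNT5A by -3.83 ± 0.69 and WNT8B by -3.12 ± 0.65, RSPO3 by -4.32 ± 0.86 and the roof plate factor ZIC1 by -1.82 ± 0.40. With 5 cells per tag all 6 tested were called lower. Over all genes tested 7.72% were called lower at 20 cells per tag and 18.3% at 5. Of 5 dorsal telencephalon genes tested 2 were called, both higher. EMX1 was at 19.5 to 65.2 CPM in 3DMono, with a median of 48.2, against 6.82 CPM in the 2DMono tag (2.36 ± 0.66, adjusted p = 0.0203), and LHX2 was higher by 1.22 ± 0.41 (0.0497). The BMP targets SMAD6, SMAD7 and MSX2 were lower in 3DMono, 3 of 4 tested. In 3DFusi against 2DCocu 2 of 8 hem genes were called lower, RSPO1 and ZIC1, and 0 of 4 dorsal telencephalon genes were called. There 9.08% of all genes tested were called lower. Choroid plexus markers, which border the hem, summed to 10.1 to 35 CPM in 3DMono and 103 CPM in the 2DMono tag, with 4 of the 6 seen in the 801 cells and TTR at 0 by the rule. Their part in the result was not tested.

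Among the called genes with the largest change, taken from those with at least 10 CPM and tags that did not overlap, HS6ST2, at 607, 881, 681, 511 and 534 CPM in 3DFusi against 17.8 to 46.8 CPM in 2DCocu, was higher by 4.25 ± 0.25 (adjusted p = 4.22e-08). PTH2R was higher by 4.61 ± 0.46 in 3DFusi, and in 3DMono it stood at a pooled ratio of 82.3 (95% exact interval 22.7 to 681) to the 2 counts of the 2DMono tag. LMO3, a LIM domain factor gene, stood at a pooled ratio of 75.1 (13.2 to 2989), with 1 count in 2DCocu, and LMO1 at 38.1 (10.3 to 318). Intervals of pooled ratios in this paragraph cover counting error only and not the spread between tags or cells. STMN4 was higher by 4.32 ± 0.55 and JPH1, a junctophilin gene, by 4.20 ± 0.34. In 3DMono GPR39, a zinc receptor gene, was higher by 5.35 ± 0.47 and the ephrin receptor gene EPHA3 by 5.66 ± 0.55. Among genes lower in 3-D, ZIM2 had 0 counts in the 5 3DFusi tags and was at least 30.9-fold lower than in 2DCocu (3 counts over the group as the floor), and ZNF736 at least 25.2-fold. The interleukin receptor gene IL1R1 was at a pooled ratio of 91.9 (24.8 to 768), the activin inhibitor gene FST at 67.6 (22.6 to 332) and the caveolin gene CAV1 at 82.4 (14.1 to 3323), in favour of 2DCocu. SLC15A1, a peptide transporter gene, was lower by -5.61 ± 0.57. In 3DMono the matrix gene EFEMP1 had 12 counts over 6 tags and 297 in the 2DMono tag, a pooled ratio of 90.96, and with 5 cells per tag it was lower by -7.29 ± 0.43.

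**Figure D4:**
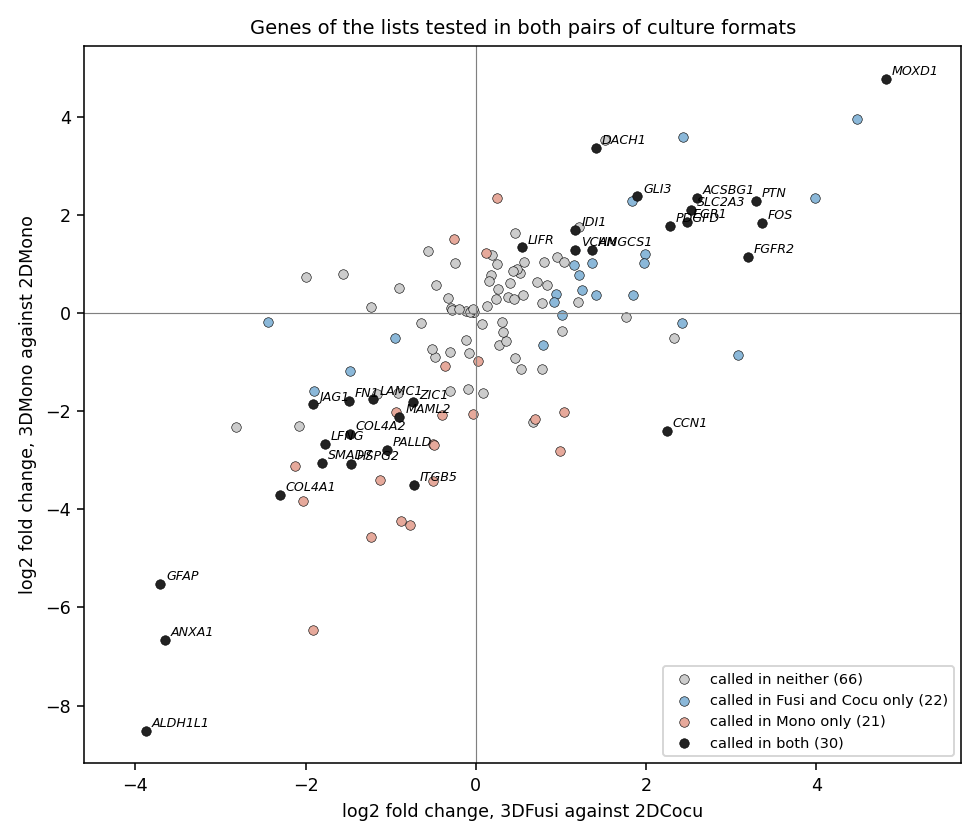
Log2 change between formats for each list gene tested in both pairs, with 3DFusi against 2DCocu on the horizontal and 3DMono against 2DMono on the vertical axis, 1 point per gene; colours show whether a gene was called in neither pair (66), in 1 of them (22 and 21) or in both (30, named). Of 139 genes, 29 were called in both in the same direction, and CCN1 was called in opposite directions.

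Over all genes tested in both pairs, 9661, 721 were called in both, which is 44.1% of the 3DFusi against 2DCocu calls and 55.5% of the 3DMono against 2DMono calls. Of these 281 were higher in 3-D in both, 432 lower in both and 8 opposite. The pairs share no tag. A test of the difference between the pairs, in a single fit at 20 cells per tag, called 125 of 12106 genes (1.03%), and at 5 cells 702 of 9307 (7.54%). Of 168 list genes it called 9 at 20 cells, and at 5 cells 39 of the 137 of them that were tested, with all 9 among the 39. At 20 cells the difference, Mono pair minus the other, was negative for ITGB5 (-2.30 ± 0.43), FBXO32 (-3.51 ± 0.79), CCN1 (-4.64 ± 0.66), CLU (-3.76 ± 0.70), GJA1 (-3.89 ± 0.78), NKD1 (-2.73 ± 0.60), SPRY2 (-3.12 ± 0.68) and FGFR2 (-2.09 ± 0.31). It was positive for TTYH1 (1.84 ± 0.42). For MOXD1 the difference was 0.12 ± 0.79 (adjusted p = 0.981), which is too wide to show that the pairs were alike.

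The same differences were looked for in the remaining cells of the same tags, those that did not meet the rule. Of 75 called genes named or listed in 3DFusi against 2DCocu, 72 differed in the same direction in the remaining cells, and for 54 the tags also did not overlap. Over all genes tested in that comparison the shares were 71.0% and 22.2%, and over all genes called 93.0% and 50.3%. The median size of the difference was 2.36 on the log2 scale in the chosen cells and 1.43 in the rest. In the Mono pair 76 of 77 had the same direction and 69 also did not overlap, against 82.8% and 55.5% of all genes tested and 94.1% and 84.3% of those called. Both shares of the Mono pair rest on 1 2DMono tag. MOXD1, for example, was at 110 CPM in the remaining cells of 3DFusi against 7.93 CPM in those of 2DCocu, FOS at 112 against 16.1 CPM and GFAP at 5.10 against 70.5 CPM. Some outer radial glia genes called in the chosen cells had near equal means and overlapping tags in the rest: in the remaining cells FAM107A was at 17.6 and 17.9 CPM, TNC at 94.7 and 92.5 CPM and STAT3 at 115 and 115 CPM. Whether the difference is larger in the chosen cells was not tested.

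The number of genes called between the 3-D arrangements depended on the setting. In 4 tags of 3DFusi against 4 of 3DMono, over AcMor and Vehic, edgeR called 26 of 10540 genes (0.247%), 20 higher and 6 lower in 3DFusi (0.19% and 0.0569%). In 24 of the 26 the tags did not overlap, as they did not in 4.38% of all genes tested. The count fell to 1 without 3DFusi Vehic tag 1 or 3DMono Vehic tag 1, to 4 without 3DMono AcMor tag 1 and to 11 without its tag 2, and rose to 61 and 55 without 3DFusi AcMor tags 1 and 4. It was 98 by DESeq2, 218 with no filter on low counts, 120 with 50 cells per tag and 48 with 5 cells per tag, and 51 without the most deeply read cells. RGS6, a regulator of G protein signalling, was at 1369, 1056, 1257 and 1281 CPM in 3DFusi and at 429, 781, 341 and 289 CPM in 3DMono (1.43 ± 0.23, adjusted p = 0.0271). HYDIN, a gene of motile cilia, was at 189, 244, 154 and 225 against 65.7, 102, 72.2 and 95.3 CPM (1.36 ± 0.21). NFATC2, a calcium-regulated transcription factor gene, was at 93.0, 63.6, 148 and 45.0 against 10.9, 17.9, 6.21 and 28.6 CPM (2.64 ± 0.45). The groups did not overlap for these 3 genes. With 5 cells per tag RGS6 was not called (1.13 ± 0.34, adjusted p = 0.217).

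TEKT1, another gene of cilia, was higher by 3.22 ± 0.63, with counts in 22 of 164 3DFusi cells, and NKD1, a WNT target, by 2.07 ± 0.41. The 7 ciliated cell markers summed to 44.6 to 165 CPM in 3DFusi and 29.2 to 54.0 CPM in 3DMono, all 7 were seen in the 801 cells, and their part in the result was not tested. HMGA2, a chromatin protein of early progenitors, was at 111, 92.9, 158 and 205 CPM in 3DFusi and at 254, 377, 397 and 445 CPM in 3DMono (-1.21 ± 0.20, adjusted p = 0.0271). LINC01478 was at 7.65, 27.7, 40.5 and 58.0 against 216, 107, 298 and 372 CPM (-2.62 ± 0.40), and STXBP6 at 53.5, 37.5, 18.3 and 58.0 against 134, 164, 207 and 108 CPM (-1.79 ± 0.30). All 3 were lower in each of the 4 3DFusi tags compared than in any of the 4 3DMono tags. Of the 10 outer radial glia genes and the 15 tested radial glia genes outside the rule, 0 were called, with medians of 0.21 and 0.11 against 0.001 over all genes. With 5 cells per tag 1 of these 15 was called lower, with a median of -0.15, and 0 of the 10 were called. MOXD1 differed by 0.13 ± 0.20 and PTN by 0.10 ± 0.28. EMX1 was at 11.5, 9.78, 2.61 and 26 CPM in 3DFusi and at 59.0, 19.5, 50.5 and 38.1 CPM in 3DMono, with a log2 change of -1.73 ± 0.48 that was not called (adjusted p = 0.245). Only the 3DFusi Vehic tag 1 lay inside the 3DMono range.

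The Proto cultures 1For and 2Xia held 34 and 68 of the cells, and only 2 tags reached 20, so their comparison used 5 cells per tag, 3 tags against 3. edgeR called 0 of 4287 genes (0%), with 180 at an unadjusted p under 0.05, and DESeq2 called 0 as well. MOXD1 was at 54.1, 42.3 and 247 CPM in 1For and at 140, 106 and 96.4 CPM in 2Xia, and GLI3 at 421, 491 and 1424 against 1069, 519 and 677 CPM. The groups overlapped for both, and 1For tag 3 stood above the other 1For tags.

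Few genes were called for treatment in these cells. In 3DFusi AcCoc against Vehic only 1 tag on each side held 20 cells, so that the spread came from the 3 AcMor tags alone and the comparison has no replicates of its own. There edgeR called 0 of 10873 genes (0%), with 295 at an unadjusted p under 0.05, while DESeq2 called 1. AcMor, with 3 tags against 1, called 1 gene (0.0092% of those tested), and 99, 49 and 40 without AcMor tags 1, 3 and 4. In 3DMono, with 2 tags against 2, AcDop called 0 of 9505 genes (354 unadjusted, and 0 by DESeq2), and AcMor called 1 (0.0105%), 14 without either AcMor tag and 5 without Vehic tag 1. The difference between the AcMor changes of the arrangements called 0 of 11860 genes (299 unadjusted, and 1 by DESeq2). In data simulated at this size for AcMor in 3DMono, 96% of 4-fold changes and 32% of 2-fold changes were recovered. The changed genes there were drawn only from those above the median level, and the simulated spread depended on level alone. Recovery of low genes, or of genes carried by few cells, was therefore not measured, and few calls do not show that such changes are absent.

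The called genes rested on few cells. TRIM67, a ubiquitin ligase gene of neurons, was at 0.725 and 3.25 CPM in the 3DMono AcMor tags and at 51.3 and 98.5 CPM in the Vehic tags (-5.71 ± 0.71, adjusted p = 0.00268). Its counts in Vehic came from 3 of 132 cells, and 67.0% of them from 1 cell. In the AcMor tags TRIM67 had a count in 3 of 165 and 2 of 51 cells, or 1.82% and 3.92%. In the Vehic tags the shares were 1.90% and 3.70%. It was also at 113 and 488 CPM in 3DFusi AcCoc tags 3 and 4, the tags with much RSPO2, and of the 28 cells with RSPO2 and LMX1A 32.1% had TRIM67, against 1.53% of the 654 with none of the regional genes. CCSER1 was at 67.6, 86.4 and 58.8 CPM in the 3DFusi AcMor tags and at 444 CPM in the Vehic tag (-2.62 ± 0.30, adjusted p = 0.0151), where 61.8% of its counts came from 1 cell. It was not called with 5 cells per tag (alone or with tag number as a block), without the deepest cells or without the robust option.

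Immediate early genes were followed by treatment, since they report recent stimulation. EGR1 was at 642 and 607 CPM in 3DMono AcMor, 472 and 576 CPM in AcDop and 299 and 295 CPM in Vehic. AcMor and AcDop tags lay above both Vehic tags, with log2 changes of 1.17 ± 0.23 and 0.83 ± 0.23, but neither was called (adjusted p = 0.137 and 0.999), and 33.4% and 33.8% of all genes tested also had tags that did not overlap. FOS was at 208 and 201 CPM in AcMor, 122 and 126 CPM in AcDop and 125 and 130 CPM in Vehic (AcMor 0.79 ± 0.25, adjusted p = 0.953). In 3DFusi EGR1 was at 224, 523 and 327 CPM in AcMor against 389 CPM in Vehic, and the groups overlapped. Of 6 immediate early genes tested in 3DMono and 8 in 3DFusi, 0 were called for any treatment.

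Genes of the drugs' targets were scarce. OPRM1, the mu opioid receptor, had a count in 68 of the 801 cells (8.49%; 4.56% after thinning). Pooled over tags it was at 19.97 CPM in 3DMono Vehic, 12.6 in AcMor and 15.2 in AcDop, at 4.58 CPM in 3DFusi Vehic, 15.7 in AcMor and 23.0 in AcCoc, at 2.41 CPM in 2Xia and at 0 in 1For. In 3DFusi against 2DCocu, OPRM1 was at 31.2, 14, 19.6, 14.4 and 5.92 CPM against 2 counts in 5 tags, a pooled ratio of 17.8, and was called (adjusted p = 0.00217). Against Vehic it was not called for any treatment. The dopamine receptor gene DRD5 had 0 counts and DRD1 1 count, and the other genes of the list that were measured stayed at or below 12.7 CPM in every 3-D group. The dopamine transporter gene SLC6A3 reached at most 1.53 CPM and the serotonin transporter gene SLC6A4 at most 12.7 CPM, in 1For.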

How the data were processed

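Single-cell RNA was read from H1 neural cultures in 8 sublibraries. The authors deposited estimated counts per gene and cell, not whole in 45.7% of entries. Salmon 1.7.0, alevin, Seurat 4.1.1 and build hg38 are named, per the submitters' processing notes. The cells were chosen by the rule given at the start of the report, and the members and gene lists were chosen with earlier results of these data known. Counts were summed per tag over at least 20 of the cells, rounded and filtered with filterByExpr, scaled by TMM and tested with edgeR 4.0.16 (quasi-likelihood, robust), with adjusted p at most 0.05 as a call. DESeq2 1.42.0 was an alternative. The minimum of 5 cells per tag, the fit without the robust option and the test between the pairs of formats were chosen after seeing the data. CPM are those sums scaled to a total of 1e6. Tag numbers were not treated as pairs. Sums were 256776 to 4138150 counts per 3-D tag with 20 cells. Shares used exact permutation tests. The named genes were up to 12 called genes per direction with the largest change, non-overlapping tags and at least 10 CPM, plus up to 4 examples per list by level. Further list genes, leading genes, the regional subsets and thinned shares of single genes were chosen after their values were seen. Python 3.11.15, scipy 1.17.1 and R 4.3.3 were used. Tests were tried on simulated data. Sequences are from RefSeq. Results for some genes are not reported here.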

Additional observations from a re-analysis of the deposited data

Results flagged for a closer look

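Of 92 groups of 4 to 10 tags, over 28 genes, 7 held a tag far from the others; chance gives about 1 in 20. In 3DMono these were TNC at 623 CPM and JUN at 118 CPM in AcMor tag 1, RGS6 at 781 CPM in AcMor tag 2 and ALDH1L1 at 1.35 CPM in AcDop tag 1. In 3DFusi they were FAM107A at 35.5 CPM in Vehic tag 1, the lowest of the 5 tags, COL4A1 at 53.8 CPM in AcMor tag 3 and STXBP6 at 184 CPM in AcCoc tag 1, which did not enter the comparison with 3DMono.

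For 7 genes the change from 2-D to 3-D was called in opposite directions in 3DFusi against 2DCocu and in 3DMono against 2DMono, and edgeR's test of the difference, Mono pair minus the other, was called too. CCN1 was higher in 3DFusi and lower in 3DMono, a difference of -4.64 (adjusted p = 0.000736). The same order held for NECTIN3-AS1 at -5.39 (0.0490), SLC44A3-AS1 at -3.41 (0.00558), CNN3, a calponin gene, at -1.99 (0.00255) and ARNT2, a transcription factor gene, at -1.95 (0.0131). ANO5 and the glycosyltransferase gene GALNT13 went the other way, at 2.36 (0.0318) and 2.31 (0.0165). NECTIN3-AS1 and SLC44A3-AS1 lie antisense to other genes, and strand in counting is not given in the sources used here. The Mono pair rests on 1 2-D tag.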

How the results depend on the processing

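Shares, as differences in percentage points: with at least 5 of the 7 genes the sign turned for AcCoc in 3DFusi (0.203) and for 1For against 2Xia (0.120), and 3DMono against 2DMono (1.90) and 3DFusi against 2DCocu (0.804) passed the threshold, on a share that the rule's own genes set. Thinned to 5000 counts the sign turned for AcCoc (0.142), for AcDop (-0.832) and AcMor (-0.509) in 3DMono and for 1For against 2Xia (0.0841), and 3DFusi against 2DCocu passed (1.21). As a share of cells with 0 for STMN2, COL3A1 and TTR, 1For against 2Xia turned (1.54). Leaving out 1 tag gave -0.898 to 0.179 for AcCoc and 0.333 to 2.33 for AcMor in 3DFusi, -1.22 to 2.55 for AcDop and -0.877 to 3.60 for AcMor in 3DMono, -4.00 to -1.76 for 3DFusi against 3DMono, -0.960 to 0.123 for 1For against 2Xia, 2.50 to 3.99 for 3DMono against 2DMono and 0.0886 to 0.756 for 3DFusi against 2DCocu. The sign of AcCoc turned without its tag 3 (0.179), of AcDop without its tag 1 (-1.22) or Vehic tag 2 (-0.783), of AcMor in 3DMono without its tag 1 (-0.877) or Vehic tag 2 (-0.0898), and of 1For against 2Xia without 2Xia tag 1 (0.0834) or 3 (0.123). Counts of called genes: AcCoc in 3DFusi gave 1 by DESeq2, 25 with no filter, 1 with 5 cells per tag and 2 with the replicate block at 5 cells. AcMor in 3DFusi gave 2, 41, 0 and 3 in that order, 0 without the deepest 10% of cells, 0 without the robust option, and 40 to 99 leaving out 1 tag. AcDop in 3DMono gave 13 with no filter, 24 with 50 cells, 2 without the deepest cells, 1 with the replicate block, 1 with the block at 5 cells and 0 to 2 leaving out 1 tag. AcMor in 3DMono gave 4 by DESeq2, 23 with no filter, 4 with 50 cells, 7 with the block, 7 with the block at 5 cells and 1 to 14 leaving out 1 tag. 3DFusi against 3DMono gave 98 by DESeq2, 218 with no filter, 120 with 50 cells, 51 without the deepest cells, 149 with the block, 48 with 5 cells, 43 with the block at 5 cells and 1 to 61 leaving out 1 tag. 1For against 2Xia gave 19 with no filter. 3DMono against 2DMono gave 817 by DESeq2, 2822 with 5 cells, 2845 with the block at 5 cells and 715 to 1632 leaving out 1 tag. 3DFusi against 2DCocu gave 710 with the block and 1053 to 1776 leaving out 1 tag, 1053 without 3DFusi AcCoc tag 1. The difference of the AcMor changes gave 1 by DESeq2, 13 with no filter, 43 with the block, 1 with the block at 5 cells and 0 to 5 leaving out 1 tag. None of the genes named by rule changed direction in any of these fits. Calls were lost, though: 26 of 75 with the replicate block in 3DFusi against 2DCocu, 29 of 75 without 3DMono Vehic tag 1 in the Mono pair, and 17 of 18 in 3DFusi against 3DMono without 3DFusi Vehic tag 1, 3DMono Vehic tag 1 or 3DMono AcMor tag 1. Same-numbered tags correlated at -0.0394 to 0.304 in 3DFusi (mean 0.137, against -0.0515 for different numbers). In 3DMono they correlated at 0.0116 to 0.137 (mean 0.0915 against -0.0915). In 2DCocu and 2DMono the same-number means were -0.0207 and -0.0287. These correlations were low and the numbers were not read as pairs, but they do not exclude a shared batch. Not fitted were all 9 gene comparisons with at least 5 of the 7 genes, 50 cells for the 3DFusi treatments, 1For against 2Xia, 3DFusi against 2DCocu and the difference of AcMor changes, the block for the 3DFusi treatments at 20 cells, and leaving out a lone tag. The causes were not tested. Depth limits low genes: 0 counts of ZIM2 in the 801 cells allow up to 0.223 CPM.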

Other observations

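Among genes lower in 3-D, ZIM2 and PEG3, which lie in an imprinted cluster, and the zinc finger gene ZNF736 were followed over all cells of each tag. ZIM2 was at 0 to 1.79 CPM in the 22 3-D tags (median 0.380) and at 2.56 to 19.9 CPM (median 8.08) in the 22 2-D tags other than 4Nic. PEG3 was at 0 to 2.23 CPM against 0.815 to 8.02 CPM, and ZNF736 at 0 to 0.893 CPM against 6.32 to 19.2 CPM. The 2 4Nic tags, grown in 2-D, were at the 3-D level, with ZIM2 at 0.0215 and 0.142 CPM, PEG3 at 0 and ZNF736 at 0.215 and 0.283 CPM. Other zinc finger genes went different ways. ZNF680 was at 0 to 3.57 CPM in 3-D, 8.53 to 23.4 CPM in the other 2-D tags and 1.08 and 1.20 CPM in 4Nic, and ZNF248 at 0.630 to 5.58, 8.05 to 42.3, and 2.82 and 3.40 CPM. ZNF470 was not lower in 3-D, at 9.15 to 19.6 CPM (median 15.9) against 6.56 to 34.3 CPM (median 11.1), and was at 5.04 and 7.15 CPM in 4Nic. In the radial glia chosen by the rule, ZIM2 had 0 counts in 801 3-D cells and in 74 4Nic cells, and 210 counts in the other 495 2-D cells. In these 4Nic cells ZNF680 and ZNF248 had 8 and 13 counts, or 6.33 and 10.3 CPM. That was above the 3-D cells, at 0.223 and 0.669 CPM, and below the other 2-D cells, at 25.3 and 25.5 CPM. These genes were looked at after their values were seen, and no test was made.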
